A study of Mus musculus with 26 samples.

Results

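The 9 genes followed here encode the machinery that places and removes N6-methyladenosine (m6A) on RNA in mouse testis. They are the writers *Mettl3*, *Mettl14* and *Mettl16*, the writer adaptors *Wtap*, *Virma*, *Zc3h13* and *Rbm15*, and the erasers *Alkbh5* and *Fto*. They were chosen by name from the 51124 genes of the deposited table. All 9 were present and passed the filter on low values, which asked for 10 or more normalized counts in 2 or more libraries and kept 23782 genes. Of the 9 genes, only *Fto* passed the threshold of an adjusted p under 0.1, and only between the 2 knock-in lines, where its level in *10xBulge* was 0.366-fold that in *10xPerf* (limma adjusted p = 0.0404). Between these lines, 37.0% of all genes tested were called, 24.1% of them all as lower in *10xBulge*. The *Fto* call was lost when libraries were scaled to spermatocyte genes and with some libraries left out.

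RNA was taken from whole testes of adult mice of 3 genotypes, with 2 libraries each from separate mice. Libraries N1 and N2 are wild type. N3 and N4 carry *10xPerf*, an allele of *Ythdc2* with 10 sites fully complementary to the pachytene piRNA piR-A in its last exon. N5 and N6 carry *10xBulge*, in which the 10 sites are mismatched at the piRNA nucleotides around the cleavage position. The knock-in alleles were made in embryos of the B6D2F1/J hybrid line, and the lines were kept by crossing homozygous mice. *Ythdc2* itself encodes a germ cell protein that reads m6A, and the comparison shows how the genes of m6A writing and erasing stood in testes that carry these alleles.

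METTL3 and METTL14 form the heterodimer that methylates adenosines of nascent mRNA, with METTL3 as the catalytic subunit and METTL14 as its RNA-binding partner. WTAP, VIRMA, ZC3H13 and the RBM15 proteins anchor this core in the nucleus and guide it to its sites, whereas METTL16 acts alone on a few structured RNAs, among them the mRNA of the methyl donor enzyme MAT2A. FTO and ALKBH5 are dioxygenases that remove methyl marks from adenosines. In mice, germ cell loss of the METTL3 and METTL14 core disrupts spermatogenesis, and loss of ALKBH5 leaves males with poor sperm and reduced fertility.

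Values are read counts normalized by the authors, and differences are on the scale of log2(value + 1), fitted in limma over all genes tested. Approximate depth was 41.1 to 61.6 M reads per library, and no member was below 186 normalized counts in any library, while 3 reads are worth at most 3.63. *10xBulge* testes differed widely from the others: 34.4% of all genes tested had an adjusted p under 0.1 against wild type, compared with 0.959% for *10xPerf*. Of 14 genes of spermatids, the postmeiotic germ cells, 13 were lower in *10xBulge*, and *Zpbp*, with a log2 difference of -0.29, was not past the threshold. Their summed level was 600078 to 830982 normalized counts in wild type, 699874 to 783616 in *10xPerf* and 7339 to 12245.5 in *10xBulge*, with none of them at 0 in any library. Most of the *10xBulge* sum was *Zpbp*, and the other 13 genes summed to 590971 to 822854 in wild type, 690672 to 775034 in *10xPerf*, and 2753 (N5) and 1378 (N6) in *10xBulge*. Of 17 genes of spermatocytes, the meiotic germ cells, 1 was higher and 2 were lower in *10xBulge* than in wild type. The spermatocyte genes summed to 49541 to 81926 normalized counts in wild type, 78202 to 91829 in *10xPerf* and 52920 to 59645 in *10xBulge*. Of 12 genes of spermatogonia, the premeiotic germ cells, 2 were higher and 1 was lower in *10xBulge* than in wild type. Over all genes tested, 11.4% were called higher and 23.0% lower in this comparison. Genes of somatic cells were higher in *10xBulge*, namely 4 of 8 of Sertoli cells, 5 of 7 of Leydig cells and 5 of 7 of macrophages. The summed level of the Leydig genes, for example, was 54210 (N1) and 76459 (N2) in wild type, against 312374 (N5) and 148720 (N6) in *10xBulge*, in normalized counts. In *10xPerf* against wild type, 0 genes of any of these lists were past the threshold in limma. In whole tissue, fewer cells of a type and less RNA per cell cannot be told apart.

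**Figure D1:**
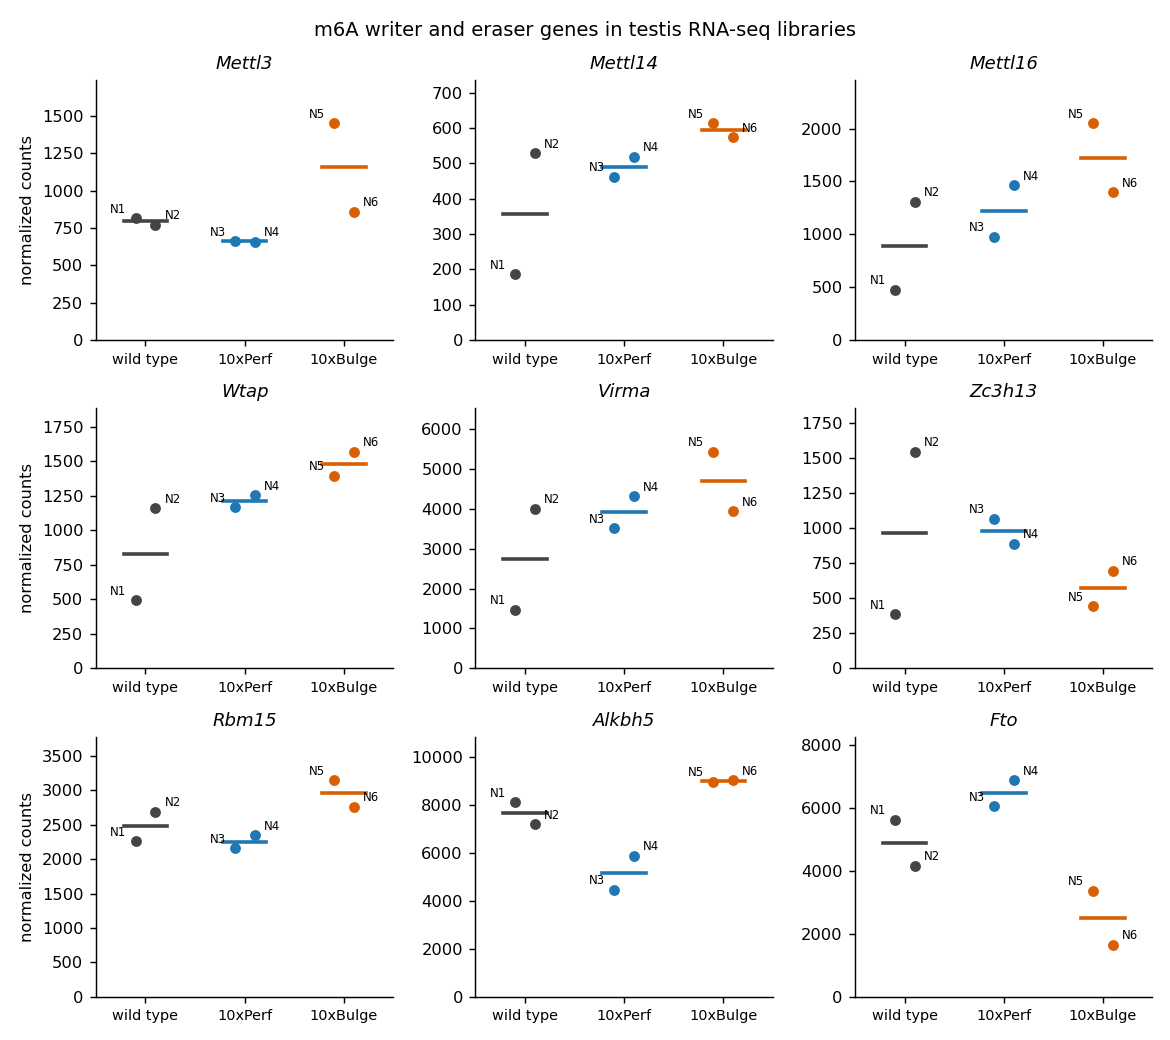
Normalized counts of the 9 genes (vertical axes, each starting at 0) in the 6 libraries, with a point per library and a bar at the mean of each genotype. *Fto* is lowest in both *10xBulge* libraries, at 3369 and 1661, while N1 of wild type lies far below N2 for *Mettl14*, *Mettl16*, *Wtap*, *Virma* and *Zc3h13*.

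In wild type and *10xPerf*, *Alkbh5* and *Fto* were the most abundant of the 9 genes per kilobase of their longest annotated transcript. In wild type, *Alkbh5* stood at 1338 ± 113 (SD, n = 2) and *Fto* at 1041 ± 220 (SD, n = 2) normalized counts per kilobase. The libraries of these genes did not overlap with each other or with those of the other 7 genes. *Virma* with 417 ± 274, *Rbm15* with 415 ± 50.3, *Mettl3* with 368 ± 14.5 and *Wtap* with 259 ± 148 normalized counts per kilobase followed. Neighbours among these 4 overlapped, except that both *Rbm15* libraries, from 379.03, lay just above both *Mettl3* libraries, up to 378.68. *Zc3h13* with 157 ± 133, *Mettl16* with 70.8 ± 46.7 and *Mettl14* with 49.7 ± 33.7 were lowest (SD, n = 2 for each) and overlapped as well. The order of the erasers was turned in *10xPerf*, where *Fto* was at 1375 ± 124 (SD, n = 2) and *Alkbh5* at 905 ± 174 (SD, n = 2) normalized counts per kilobase. In *10xBulge*, *Alkbh5* was at 1574 ± 8.06 (SD, n = 2) and *Fto* at 534 ± 256 (SD, n = 2), a level that overlapped with those of *Virma*, *Mettl3*, *Wtap* and *Rbm15*. These levels depend on which transcript is expressed, which the gene table does not show. The median length of the coding transcripts was also used in place of the longest, a choice made after seeing the data. For *Mettl3* that median is 647.5 bases over 4 coding transcripts, against 2159 bases for the longest. Its level by the median thus rests on short annotated transcripts. With it, *Mettl3* in wild type came to 1229 normalized counts per kilobase, beside 1340 for *Fto* and 1338 for *Alkbh5*. By that length the order changed in the knock-in lines. *Mettl3* was above *Alkbh5* in *10xPerf* (1020.5 against 905) and in *10xBulge* (1787 against 1574). *Wtap*, at 922, was above *Alkbh5* in *10xPerf* too. In *10xBulge*, *Wtap* at 1131, *Mettl16* at 832 and *Virma* at 721 were also above *Fto* at 688.

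*Fto* occupies bases 91313525 to 91668439 of chromosome 8 (forward strand) on GRCm38 and spans 354.9 kb. It stood at 5631 (N1) and 4170 (N2) normalized counts in wild type, 6060 (N3) and 6887 (N4) in *10xPerf*, and 3369 (N5) and 1661 (N6) in *10xBulge*. The *10xPerf* libraries were thus above both wild-type libraries and the *10xBulge* libraries below them, with no overlap among the 3 genotypes. Between the knock-in lines the log2 difference of *10xBulge* minus *10xPerf* was -1.45 with a standard error of 0.45 (95% confidence interval -2.46 to -0.43, limma adjusted p = 0.0404). Against wild type, the log2 difference of *10xBulge* was -1.03 (95% confidence interval -2.05 to -0.018, limma adjusted p = 0.124), which did not pass the threshold of 0.1. Without N5 it did (-1.54, limma adjusted p = 0.0372), and without N6 it was -0.52 (limma adjusted p = 0.433). For *10xPerf* it was 0.41 (limma adjusted p = 0.864), and this sign turned when libraries were scaled to the spermatocyte genes. The call between the lines was lost without N3 (-1.54, limma adjusted p = 0.194), without N4 (-1.36, limma adjusted p = 0.187) and without N6 (-0.94, limma adjusted p = 0.153). Over these settings, that of N5 included, the value lay between -1.96 and -0.94. The call was also lost when libraries were scaled to spermatocyte genes (-0.85, limma adjusted p = 0.350) and when the GC trend was removed with its level (-0.65, limma adjusted p = 0.180), while the other 10 settings with every library kept gave adjusted p under the threshold, the lowest being 0.0161. The fall of the spermatid genes in *10xBulge* moves with that of *Fto*, and its part in the *Fto* difference was not tested. On the opposite strand, 2 genes annotated as antisense or not yet classified overlap exons of *Fto*, and the library kit keeps the strand.

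*Alkbh5* occupies bases 60536381 to 60558512 of chromosome 11 (forward strand) on GRCm38. It stood at 8125 (N1) and 7209 (N2) normalized counts in wild type, 4480 (N3) and 5893 (N4) in *10xPerf*, and 8987 (N5) and 9052 (N6) in *10xBulge*. Its order was the reverse of that of *Fto*, with both *10xPerf* libraries below wild type and both *10xBulge* libraries above it. None of these differences passed the threshold: the log2 difference was -0.57 for *10xPerf* (95% confidence interval -1.44 to 0.29, limma adjusted p = 0.853) and 0.24 for *10xBulge* (95% confidence interval -0.63 to 1.10, limma adjusted p = 0.692) against wild type. Between the lines it was 0.81 (95% confidence interval -0.055 to 1.68, limma adjusted p = 0.146). This comparison passed the threshold under 4 alternatives, among them library totals (1.06, limma adjusted p = 0.0358) and removal of the GC trend (0.75, limma adjusted p = 0.0922), with limma adjusted p from 0.00412 to 0.191 over all 12.

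The ratio of both erasers within a library does not depend on how libraries are scaled against each other. *Alkbh5* to *Fto* was 1.44 (N1) and 1.73 (N2) in wild type, 0.739 (N3) and 0.856 (N4) in *10xPerf*, and 2.67 (N5) and 5.45 (N6) in *10xBulge*. *10xPerf* testes thus held more normalized counts of *Fto* than of *Alkbh5*, and both other genotypes fewer. On the log2 scale, the ratio averaged 0.66 ± 0.18 in the wild-type libraries, -0.33 ± 0.15 in those of *10xPerf* and 1.93 ± 0.73 in those of *10xBulge* (SD, n = 2 for each). The genotypes did not overlap, and the difference between the lines was 2.26, a 4.79-fold change. With 2 libraries against 2, the exact permutation test (two-sided) gave p = 0.333 for each of the 3 comparisons, which is the smallest it can give. Over all alternatives with every library kept, the difference between the lines stayed between 2.14 and 2.26. Among these, only the removals of GC trends moved it noticeably, while other pseudocounts moved it little. With a library left out, the difference lay between 1.75 without N6 and 2.78 without N5.

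**Figure D2:**
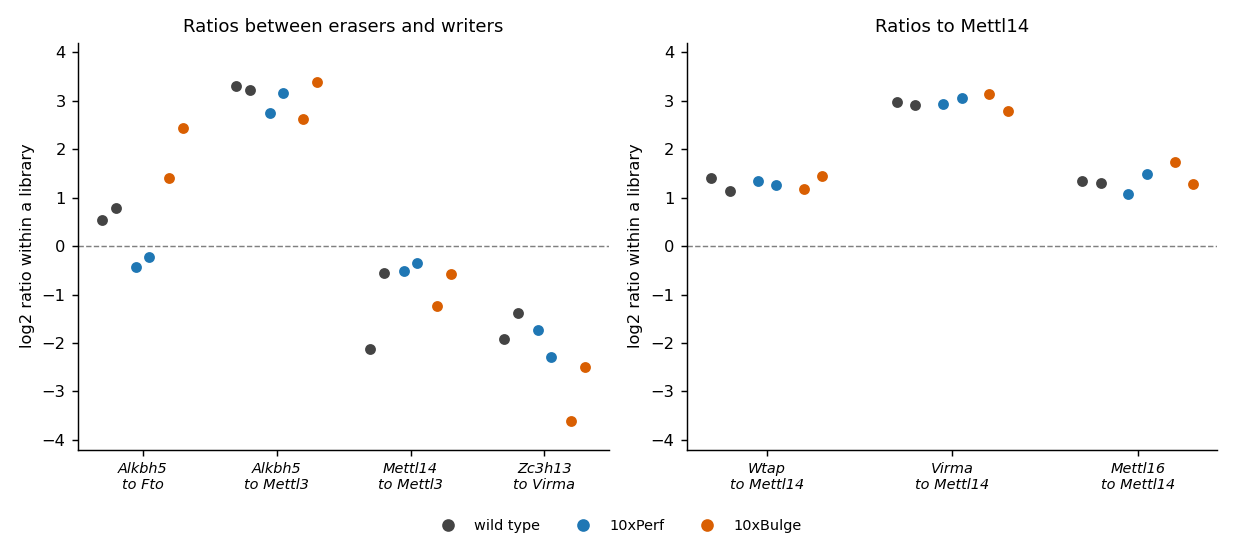
Log2 ratios between pairs of genes within each library (vertical axes), with a point per library, colored by genotype. *Alkbh5* to *Fto* separates the 3 genotypes, with *10xPerf* below 0 and *10xBulge* highest, whereas the ratios of *Wtap*, *Virma* and *Mettl16* to *Mettl14* stay between 2.19 and 2.74, 6.87 and 8.85, and 2.11 and 3.34 on the linear scale.

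*Mettl3*, the catalytic writer, occupies bases 52294841 to 52305128 of chromosome 14 (reverse strand) on GRCm38. It stood at 818 (N1) and 773 (N2) normalized counts in wild type, 662 (N3) and 659 (N4) in *10xPerf*, and 1454 (N5) and 861 (N6) in *10xBulge*. Its wild-type pair and *10xPerf* pair were tight, while the *10xBulge* pair differed by 1.69-fold. Both *10xPerf* libraries were below and both *10xBulge* libraries above wild type, as for *Alkbh5*. The log2 difference was -0.27 for *10xPerf* (95% confidence interval -1.19 to 0.65, limma adjusted p = 0.891) and 0.49 for *10xBulge* (95% confidence interval -0.43 to 1.41, limma adjusted p = 0.409) against wild type, and 0.76 between the lines (95% confidence interval -0.16 to 1.68, limma adjusted p = 0.197). The *10xBulge* value against wild type was 0.11 without N5 and 0.87 without N6. That between the lines was 0.38 without N5, and it passed the threshold without N6 (1.14, limma adjusted p = 0.0916) and with library totals (1.01, limma adjusted p = 0.0527). *Alkbh5* to *Mettl3* lay between 6.18 and 10.5 in all 6 libraries, with both ends of that range in *10xBulge*. The protein-coding gene *Tox4* overlaps *Mettl3* exons on the opposite strand.

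*Mettl14*, the partner of *Mettl3*, occupies bases 123368297 to 123386108 of chromosome 3 (reverse strand) on GRCm38. It stood at 186 (N1) and 529 (N2) normalized counts in wild type, 463 (N3) and 519 (N4) in *10xPerf*, and 614 (N5) and 574 (N6) in *10xBulge*. Library N1 stood apart from the other 5, which lay within 463 to 614. Both *10xBulge* libraries were above both wild-type libraries. The log2 difference of *10xBulge* against wild type was 0.92 (95% confidence interval -0.25 to 2.09, limma adjusted p = 0.225), and this value was 0.17 without N1 and 1.67 without N2. *Mettl14* to *Mettl3* was 0.228 in N1 and between 0.422 and 0.788 in the other libraries.

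*Mettl16*, the writer of structured RNAs, occupies bases 74770830 to 74828525 of chromosome 11 (forward strand) on GRCm38. It stood at 476 (N1) and 1306 (N2) normalized counts in wild type, 976 (N3) and 1465 (N4) in *10xPerf*, and 2052 (N5) and 1400 (N6) in *10xBulge*. The *10xBulge* libraries were above both wild-type libraries, and N4 lay above N6. The log2 difference of *10xBulge* against wild type was 1.10 (95% confidence interval -0.10 to 2.31, limma adjusted p = 0.162), and it was 0.38 without N1 and 1.83 without N2.

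*Wtap*, which holds the writer complex in nuclear speckles, occupies bases 12966796 to 12994169 of chromosome 17 (reverse strand) on GRCm38. It stood at 493 (N1) and 1159 (N2) normalized counts in wild type, 1166 (N3) and 1254 (N4) in *10xPerf*, and 1398 (N5) and 1572 (N6) in *10xBulge*. Every knock-in library was above both wild-type libraries, although N3 exceeded N2 by a small margin. The log2 difference of *10xBulge* against wild type was 0.97 (95% confidence interval -0.085 to 2.03, limma adjusted p = 0.160), and it was 0.35 without N1 and 1.59 without N2. *Virma*, the large scaffold of the complex, occupies bases 11485958 to 11550684 of chromosome 4 (forward strand). It stood at 1466 (N1) and 4008 (N2) normalized counts in wild type, 3519 (N3) and 4315 (N4) in *10xPerf*, and 5437 (N5) and 3943 (N6) in *10xBulge*. Library N2 lay within the range of *10xPerf* and above N6, so that only N1 set wild type apart. The log2 difference of *10xBulge* was 0.93 (95% confidence interval -0.23 to 2.10, limma adjusted p = 0.215), and it was 0.21 without N1 and 1.66 without N2.

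*Zc3h13*, the zinc finger protein that keeps the adaptors in the nucleus, occupies bases 75284373 to 75344426 of chromosome 14 (forward strand) on GRCm38. It stood at 387 (N1) and 1545 (N2) normalized counts in wild type, 1065 (N3) and 888 (N4) in *10xPerf*, and 444 (N5) and 695 (N6) in *10xBulge*. The wild-type pair spanned the range of all other libraries, and both *10xBulge* libraries were below both *10xPerf* libraries. The log2 difference between the lines was -0.81 (95% confidence interval -2.20 to 0.59, limma adjusted p = 0.363). Against wild type it was -0.48 for *10xBulge* (95% confidence interval -1.87 to 0.92, limma adjusted p = 0.612), a value that was -1.47 without N1 and 0.52 without N2. Relative to *Virma* in the same library, *Zc3h13* was at 0.264 in N1 and 0.385 in N2, 0.303 in N3 and 0.206 in N4, and 0.0817 in N5 and 0.176 in N6. *10xBulge* was lowest in this ratio, without overlap, a pair of genes that was chosen after the values were seen. *Rbm15*, the RNA-binding adaptor, occupies bases 107325421 to 107333673 of chromosome 3 (reverse strand). It stood at 2262 (N1) and 2686 (N2) normalized counts in wild type, 2155 (N3) and 2348 (N4) in *10xPerf*, and 3148 (N5) and 2763 (N6) in *10xBulge*. Among *Wtap*, *Virma*, *Zc3h13* and *Rbm15*, it varied least between the wild-type libraries. Its log2 difference was 0.26 for *10xBulge* against wild type (95% confidence interval -0.58 to 1.10, limma adjusted p = 0.649) and -0.13 for *10xPerf* (limma adjusted p = 0.939), a sign that turned with library totals.

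**Figure D3:**
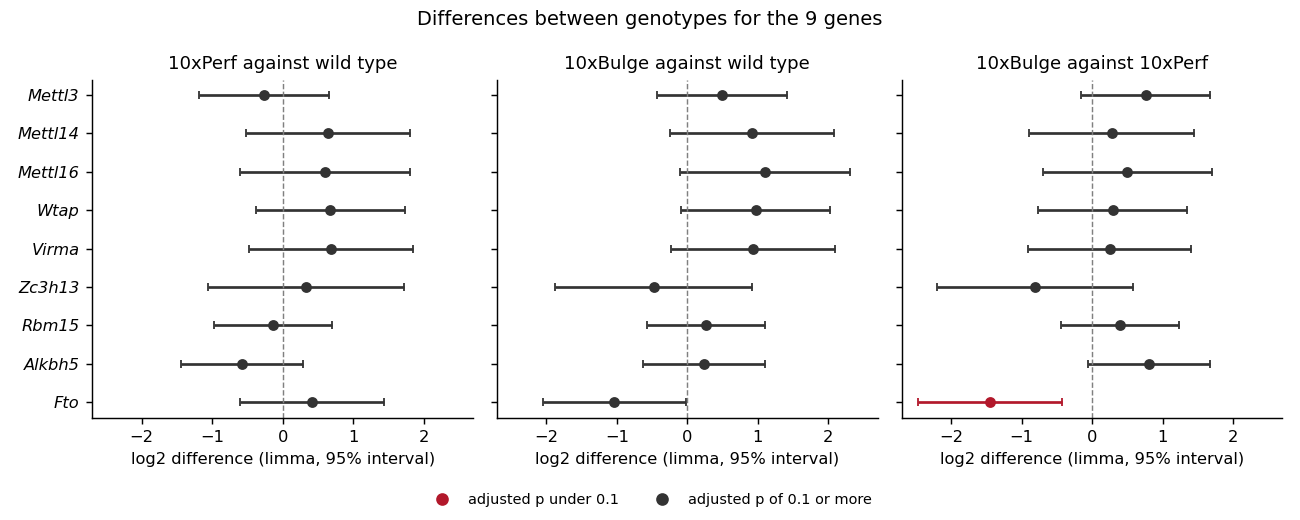
Log2 differences of the 9 genes (horizontal axes) in each of the 3 comparisons, with 95% confidence intervals from limma. The interval of *Fto* excludes 0 in *10xBulge* against *10xPerf*, the only difference with an adjusted p under 0.1, and in *10xBulge* against wild type, while all intervals of *10xPerf* against wild type span 0.

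In *10xPerf* against wild type, 0 of the 9 genes had an adjusted p under 0.1 in limma, and 0 had an unadjusted p under 0.05, against 0.959% of all genes tested that were called. The log2 differences of *Mettl14*, *Mettl16*, *Wtap*, *Virma* and *Zc3h13*, not described above for this comparison, lay between 0.33 and 0.68, with limma adjusted p of 0.853 to 0.906, and *Zc3h13* turned below 0 when scaled to spermatocyte genes. Without N1, those of *Mettl14*, *Mettl16*, *Virma* and *Zc3h13* turned to -0.11, -0.13, -0.041 and -0.67. The libraries of both genotypes did not overlap for 4 of the 9, higher in *10xPerf* for *Wtap* and *Fto* and lower for *Mettl3* and *Alkbh5*. Over all genes tested they did not overlap for 40%, with 20.2% higher and 19.8% lower. The median log2 difference was 0.41 over the 9 genes and 0.018 over all genes tested.

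In *10xBulge* against wild type, 0 of the 9 were called by limma, and 1, *Fto*, had an unadjusted p under 0.05, against 34.4% of all genes tested that were called, and 23.0% that were called lower. The libraries did not overlap for 7 of the 9, of which *Fto* was lower and *Mettl3*, *Mettl14*, *Mettl16*, *Wtap*, *Rbm15* and *Alkbh5* were higher. Over all genes tested they did not overlap for 62.1%, with 28.9% higher and 33.2% lower. The median log2 difference of the 9 genes was 0.49, beside -0.026 over all genes tested. The count of called members depended on the scaling: with library totals, which moved the median of all genes to 0.36, 5 were past the threshold, namely *Mettl3*, *Mettl14*, *Mettl16*, *Wtap* and *Virma*, and with the upper quartile only *Fto* was (-1.17, limma adjusted p = 0.0502). Without N2, 4 writer and adaptor genes (*Mettl14*, *Mettl16*, *Wtap* and *Virma*) were called, and without N1 none of the 9 was.

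In *10xBulge* against *10xPerf*, 1 of the 9 was called, *Fto* as lower, against 37.0% of all genes tested that were called and 24.1% that were called lower. Differences of the writers and adaptors not given above were 0.28 for *Mettl14*, 0.50 for *Mettl16*, 0.29 for *Wtap*, 0.25 for *Virma* and 0.39 for *Rbm15*, with limma adjusted p of 0.469 to 0.755. The libraries did not overlap for 7 of the 9, with *Fto* and *Zc3h13* lower and *Mettl3*, *Mettl14*, *Wtap*, *Rbm15* and *Alkbh5* higher in *10xBulge*. Over all genes tested they did not overlap for 66.1%, with 30.7% higher and 35.3% lower. The median log2 difference was 0.29 over the 9 genes and -0.067 over all genes tested. The comparisons share libraries, so their values are not independent of each other.

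*Mettl14*, *Mettl16*, *Wtap* and *Virma* were all lowest in N1, whereas from N5 to N6 *Wtap* was higher and the other 3 lower. Although *Mettl14* itself varied between 186 and 614 normalized counts, *Wtap* to *Mettl14* lay between 2.19 and 2.74, *Virma* to *Mettl14* between 6.87 and 8.85, and *Mettl16* to *Mettl14* between 2.11 and 3.34 in the 6 libraries. For each of these ratios the genotypes overlapped, with the largest difference of genotype means being 0.23 on the log2 scale. These ratios were chosen after the values were seen. In contrast, *Wtap* to *Mettl3* ranged from 0.602 in N1 to 1.90 in N4, and *Virma* to *Mettl3* from 1.79 in N1 to 6.54 in N4.

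The gap between the wild-type libraries moves with GC content. Over the 12426 protein-coding genes whose mean exceeded 200 normalized counts, the log2 difference of N1 minus N2 followed the GC content of the longest transcript (Spearman's rho = 0.615, a description across genes, which are not independent replicates). The median size of this gap was 0.52. The gap of N5 minus N6 in *10xBulge* followed GC content as well (rho = 0.518, median size 0.55), and that of N3 minus N4 in *10xPerf* had rho = -0.242 (median size 0.34). *Fto* differed by 1.02 between N5 and N6. *Wtap*, with 39.6% GC, *Mettl14* with 41.2%, *Mettl16* with 44.4% and *Virma* with 44.7% are on the GC-poor side and had gaps of -1.23, -1.50, -1.46 and -1.45. These gaps are larger in size than those of 92.5% to 97.4% of the genes. *Rbm15*, with 44.2% GC, had a gap of -0.25, within the middle 50% of genes of its GC content. *Zc3h13*, with 50.1% GC, had a gap of -1.995, where genes of its GC content had a median of 0.055. *Alkbh5* at 50%, *Mettl3* at 49.3% and *Fto* at 48.1% GC are close to each other in this respect, with gaps of 0.17, 0.08 and 0.43. After removal of the GC trend with the level of each library kept, *Fto* was past the threshold in *10xBulge* against wild type (-1.04, limma adjusted p = 0.0834) and between the lines. With the level removed too it was past the threshold in neither, at -0.40 against wild type (limma adjusted p = 0.406) and -0.65 between the lines (limma adjusted p = 0.180). The part of GC content in the differences between genotypes was not tested beyond these values.

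**Figure D4:**
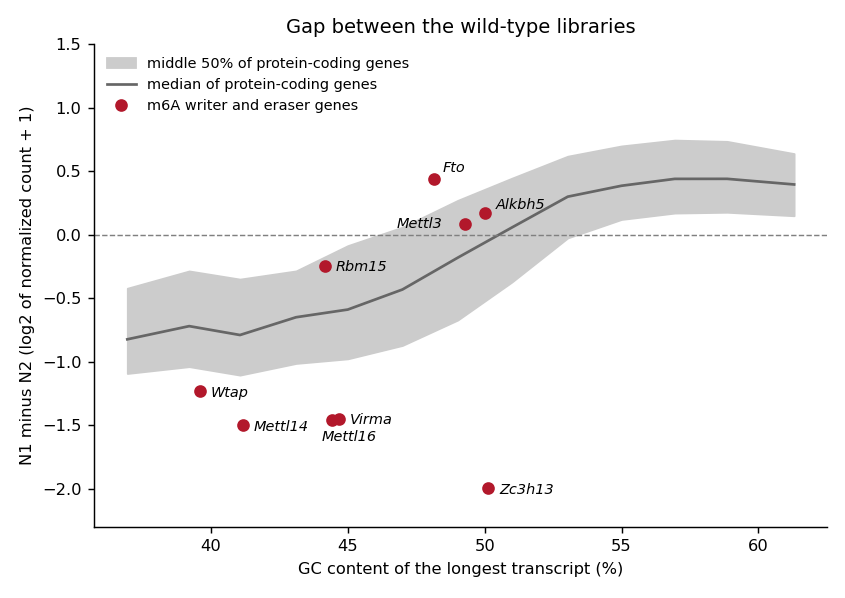
Log2 difference between wild-type libraries N1 and N2 (vertical axis) against the GC content of the longest transcript (horizontal axis, percent) for the 9 genes (points) and for 12426 protein-coding genes in bins of GC content (line at the median, band over the middle 50%). *Wtap*, *Mettl14*, *Mettl16*, *Virma* and *Zc3h13* lie below the band, between -1.23 and -1.995, and *Fto* lies above it at 0.43.

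For each gene, those with the most similar profile over the 6 libraries were sought among 13728 genes with a mean of at least 200 normalized counts, by Pearson's r of log2 values. These r are a description, since all points share the same libraries and so many genes were compared. *Fto* was most like *Dnajc9* (r = 0.997) and *Fank1* (0.993), *Alkbh5* most like *Lypla2* (0.993) and *Trmt61a* (0.992), and *Mettl3* most like *Eps15l1* (0.996) and *Kdm6b* (0.994). *Mettl14* was closest to *Grsf1* and *Ddx6*, *Mettl16* to *Mov10l1* and *Ddx59*, *Wtap* to *Jak2* and *Wdr5b*, and *Virma* to *Thumpd1* and *Fyb2*, with r from 0.996 to 0.9996. *Zc3h13* was closest to *Ythdc1* (0.995), the nuclear m6A reader, and to *Wwp1* (0.987), and *Rbm15* to *Fndc10* (0.992) and *Cd93* (0.988).

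Of 22 other genes of RNA methylation, 4 were higher and 2 lower in *10xBulge* than in wild type, and 0 were past the threshold in *10xPerf* in limma, with 1, *Mettl5*, at an unadjusted p under 0.05. Of all genes tested, 34.4% were called in *10xBulge* against wild type, 11.4% higher and 23.0% lower. With both directions pooled, the list thus had no larger share of calls than all genes. By direction, its share of higher genes was larger and its share of lower genes smaller, a difference that was not tested. Of 3 genes of the methyl donor S-adenosylmethionine, *Mat2a* and *Mat2b*, the catalytic and regulatory subunits of the enzyme that makes it, were higher in *10xBulge*. *Mat2a* reached 3567 (N1) and 6859 (N2) normalized counts in wild type, 4736 (N3) and 6445 (N4) in *10xPerf*, and 14164 (N5) and 16076 (N6) in *10xBulge* (log2 difference 1.61, standard error 0.45, limma adjusted p = 0.0274). Both *10xBulge* libraries were more than 2-fold above every other library. The somatic genes given above rose in the same libraries, and their part in the results of this list was not tested. *Mat2b* reached 437 (N1) and 660 (N2) normalized counts in wild type, 572 (N3) and 856 (N4) in *10xPerf*, and 1855 (N5) and 1819 (N6) in *10xBulge* (log2 difference 1.77, standard error 0.41, limma adjusted p = 0.0126). The call for *Mat2b* was kept with each library left out in turn (limma adjusted p from 0.0284 to 0.0947), whereas that for *Mat2a* was lost without N1 (1.14, limma adjusted p = 0.159). *Ahcy*, which clears the product of methylation, had a log2 difference of 0.87 (limma adjusted p = 0.204).

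Among 7 adaptors and other writers, *Mettl5* and *Zcchc4*, which methylate ribosomal RNA, were higher in *10xBulge*. *Mettl5* reached 74.2 (N1) and 127 (N2) normalized counts in wild type, 370 (N3) and 304 (N4) in *10xPerf*, and 243 (N5) and 406 (N6) in *10xBulge* (log2 difference 1.68, standard error 0.47, limma adjusted p = 0.0288). Both lines were thus above both wild-type libraries, and the log2 difference of *10xPerf* was 1.78 (limma adjusted p = 0.263). Without N1 the *10xBulge* call was lost (1.30, limma adjusted p = 0.187). *Zcchc4* reached 221 (N1) and 297 (N2) normalized counts in wild type, 383 (N3) and 313 (N4) in *10xPerf*, and 473 (N5) and 589 (N6) in *10xBulge* (log2 difference 1.04, limma adjusted p = 0.0923), and its call was lost with any library left out (limma adjusted p from 0.111 to 0.305) and in 7 of the 12 alternatives with every library kept.

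Of 7 further genes of the AlkB family, to which *Alkbh5* and *Fto* belong, *Alkbh3* and *Alkbh4* were lower in *10xBulge*, where 23.0% of all genes tested were called lower. *Alkbh3*, a repair enzyme for alkylated nucleic acids, reached 1688 (N1) and 2268 (N2) normalized counts in wild type, 2288 (N3) and 2113 (N4) in *10xPerf*, and 1077 (N5) and 802 (N6) in *10xBulge* (log2 difference -1.07, limma adjusted p = 0.0739). Its call was lost in 5 of the 6 settings that left out a library, with values of -1.29 to -0.86 over all 6, and in 6 of the 12 alternatives with every library kept. *Alkbh4* reached 2341 (N1) and 1565 (N2) normalized counts in wild type, 995 (N3) and 1142 (N4) in *10xPerf*, and 834 (N5) and 735 (N6) in *10xBulge* (log2 difference -1.29, limma adjusted p = 0.0409), and its call was lost without N1 (-0.997, limma adjusted p = 0.184) and when scaled to spermatocyte genes (-1.14, limma adjusted p = 0.210). Of the 5 readers *Ythdc1*, *Ythdc2*, *Ythdf1*, *Ythdf2* and *Ythdf3*, 0 were called against wild type in either line. *Ythdc2*, the gene that carries the sites, reached 827 (N1) and 2412 (N2) normalized counts in wild type, 1334 (N3) and 1136 (N4) in *10xPerf*, and 1202 (N5) and 2458 (N6) in *10xBulge*, so that all 3 genotypes overlapped.

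**Figure D5:**
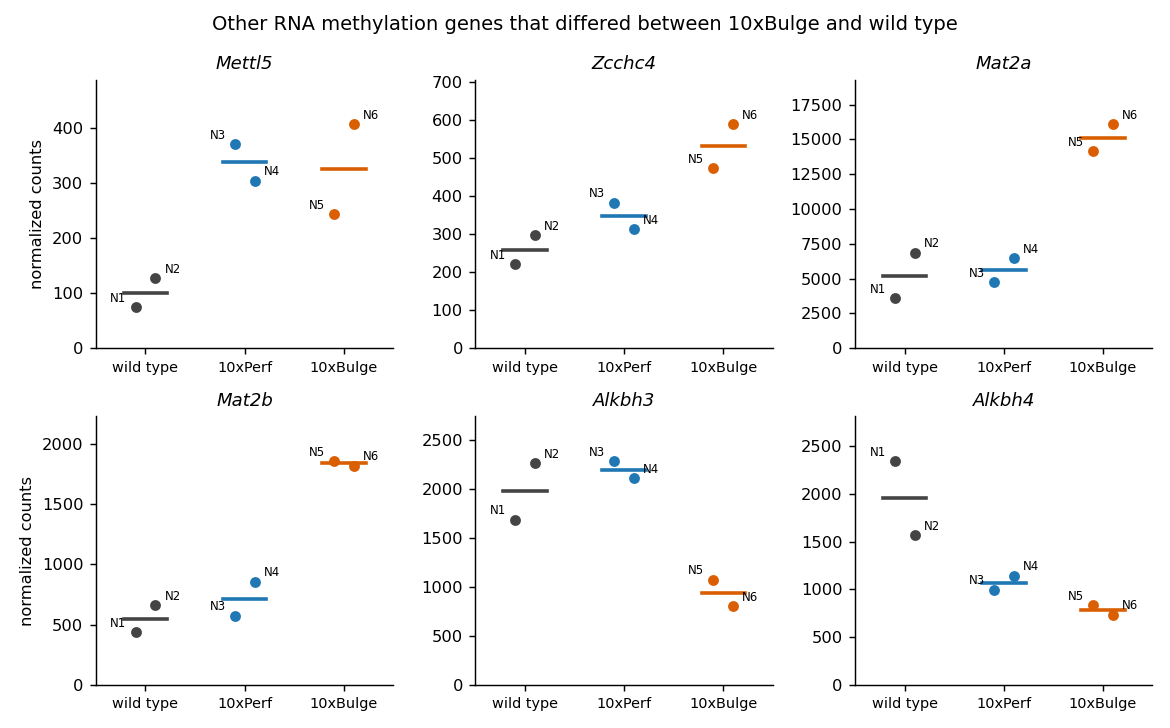
Normalized counts (vertical axes, each starting at 0) of the 6 other RNA methylation genes that were past the threshold in *10xBulge* against wild type, with a point per library and a bar at the mean of each genotype. *Mat2a* and *Mat2b* are highest in both *10xBulge* libraries, and *Mettl5* is above wild type in all 4 knock-in libraries.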

How the data were processed

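Total RNA from testes of 6 mice, a different one per library per the labels, was depleted of ribosomal RNA and sequenced as single-end reads with a stranded kit. The authors assigned reads to Ensembl transcripts on GRCm39 with salmon, with its GC correction, and deposited DESeq2-normalized read counts, a per-gene signal for each library whose values are not whole reads. The authors also deposited the mean over libraries, log2 fold changes and adjusted p-values of the knock-in lines against wild type, which were not used. The MILI and MIWI immunoprecipitations were not analysed here.

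The filter kept genes with 10 or more normalized counts in 2 or more libraries. A model of log2(value + 1) by genotype was fitted in limma 3.58.1 (R 4.3.3) using a mean-variance trend, and p-values were adjusted by Benjamini-Hochberg over all genes tested. The threshold was an adjusted p under 0.1. The procedure was tested on simulated data. Approximate reads are the library sum divided by its most frequent smallest step, and floors of 3 reads cover counting error only. GRCm38 positions, lengths and GC content are from GENCODE, with GC content for 23614 of the tested genes. The deposited table lists no other gene of the same sequence for any of the 9. Where 1 library was left out, the remaining one was assumed to vary like the other genotypes.

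The members and lists were chosen with earlier results of these data known. Named are the 9 genes, *Ythdc2*, genes of the RNA methylation list called against wild type, and the 2 genes most similar to each member. Figures were drawn with Python 3.11.15 and matplotlib 3.10.9. Alternatives were other scalings, filters, pseudocounts, thresholds and fits, removal of GC trends and leaving out each library.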

Additional observations from a re-analysis of the deposited data

Results flagged for a closer look

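By limma's test of *10xBulge* against *10xPerf*, in which wild type cancels out, the 2 knock-in lines differed in their effect for 4 genes. Looked at were the 9 members and the other RNA methylation genes called against wild type. Those other genes had been called with the same *10xBulge* libraries, so their differences between the lines are not separate support. For *Fto* the log2 difference was -1.45 (standard error 0.45, adjusted p = 0.0404), and *10xBulge* was lower in both libraries. It was lost without N3, N4 or N6 (adjusted p = 0.194, 0.187 and 0.153), when scaled to spermatocyte genes (adjusted p = 0.350) and when the GC trend and its level were removed (adjusted p = 0.180). For *Alkbh3*, of the same enzyme family, it was -1.24 (standard error 0.39, adjusted p = 0.0422), and it was lost without N3, N4 or N6 (adjusted p = 0.217, 0.136 and 0.127) and when scaled to spermatocyte genes (adjusted p = 0.414).

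For *Mat2a* the difference was 1.45 (standard error 0.45, adjusted p = 0.0392), and it was lost without N3 (adjusted p = 0.272) or N4 (adjusted p = 0.117). For *Mat2b* it was 1.39 (standard error 0.41, adjusted p = 0.0348), and it was lost without N3 (adjusted p = 0.246). Between the lines, 37.0% of all genes tested were called.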

How the results depend on the processing

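No paired analysis was possible because the libraries of each genotype come from different mice and share no replicate number. The removal of the GC trend together with its level was chosen after seeing the data, and it re-centres each library, moving the median of all genes to 0.58 in both comparisons of *10xBulge*. Library totals moved it to 0.15 in *10xPerf* against wild type, 0.36 in *10xBulge* against wild type and 0.18 between the lines, the upper quartile to -0.0092, -0.16 and -0.18, and scaling to spermatocyte genes to -0.43, 0.12 and 0.53. The causes of the changes below were not tested unless the setting itself holds fewer genes or libraries.

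In *10xBulge* against wild type, the 0 called members became 5 with library totals, 1 with the upper quartile, 1 after removal of the GC trend and 7 with its level removed too, and 0 to 4 with a library left out. Between the lines, the 1 called member became 3 when scaled by library totals, 2 after removal of the GC trend and 7 after that of its level too, and 0 to 1 with a library left out, lost without N3 and without N4, while without N6 it was *Mettl3* (1.14) in place of *Fto*. With spermatocyte scaling the called member was *Alkbh5* (1.41, adjusted p = 0.0900) in place of *Fto*. In *10xPerf* no setting called a member.

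Over all genes, 111 were higher and 117 lower in *10xPerf*. The counts became 72 and 77 (library totals), 44 and 53 (10 or more in every library), 40 and 65 with a pseudocount of 0.1, 63 and 72 at an adjusted p under 0.05, 214 and 190 with only the 2 genotypes, and from 11 to 204 higher and from 10 to 186 lower with a library left out. In *10xBulge* against wild type, 2712 were higher and 5466 lower. The higher became 5788 with library totals, 1653 with spermatocyte scaling, 1370 at 0.05, 1512 with only the 2 genotypes, 8712 with the GC trend and level removed, and from 636 without N1 to 2858 with a library left out, and the lower 2926 when every library had to hold 10 or more and from 3919 to 5574 with a library left out. Between the lines, 3077 were higher and 5729 lower. The higher became 5122 with library totals, 4870 with spermatocyte scaling, 1725 at 0.05, 8801 with the GC trend and level removed, and from 418 without N3 to 3286, and the lower 3064 when every library had to hold 10 or more and from 3730 to 5812. The share of higher genes among calls in *10xBulge* against wild type was 33.2%, 55% with library totals and 64.8% after removal of the GC trend and level. Between the lines it was 34.9%, and 49.8%, 54.8% and 64.5% under library totals, spermatocyte scaling and removal of the GC trend and level.

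Signs turned for *Rbm15* in *10xPerf* with library totals (0.0021), for *Zc3h13* and *Fto* in *10xPerf* with spermatocyte scaling (-0.12 and -0.038), and for *Zc3h13* in *10xBulge* against wild type with the GC trend and level removed (0.15). With a library left out, *10xPerf* values ranged from -0.11 to 1.39 for *Mettl14*, from -0.13 to 1.33 for *Mettl16*, from -0.041 to 1.41 for *Virma* and from -0.67 to 1.33 for *Zc3h13*, and that of *Zc3h13* in *10xBulge* against wild type from -1.47 to 0.52. The *Alkbh5* to *Fto* difference kept its direction in each comparison with other pseudocounts, with GC trends removed and with a library left out. The other settings leave a ratio within a library as it is, so they could not test its direction. With 2 libraries per genotype the standard errors of the members were 0.37 to 0.62 on the log2 scale, which limits the differences that could be detected.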

Other observations

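*Zc3h13* and *Ythdc1*, an adaptor of m6A writing and its nuclear reader, had almost the same profile. *Ythdc1* was picked as the most similar of 13728 genes over these 6 libraries, so their shared order follows from that choice. *Ythdc1* reached 1498 (N1) and 4578 (N2) normalized counts in wild type, 3482 (N3) and 2854 (N4) in *10xPerf*, and 1661 (N5) and 2644 (N6) in *10xBulge*, so that N1 and N5 were lowest, as they were for *Zc3h13*. Both *10xBulge* libraries were below both *10xPerf* libraries for each gene, as they were for 35.3% of all genes tested. Neither passed the threshold in any comparison, and *Ythdc1* had limma adjusted p of 0.913 in *10xPerf* and 0.709 in *10xBulge* against wild type and 0.463 between the lines (log2 difference -0.59).

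Between the knock-in lines, 2 more genes of RNA methylation, named here after their values were seen, were higher in *10xBulge*. Of the 22 other genes of RNA methylation, 4 were called higher and 1 lower there, beside 12.9% and 24.1% of all genes tested. *Ahcy* had a log2 difference of 1.33 (limma adjusted p = 0.0614) and *Ythdf1*, a cytoplasmic reader, of 0.999 (limma adjusted p = 0.0874). Neither call was repeated under the other settings.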
